A study of Mus musculus with 22 samples.

Results

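All 14 colon libraries of mice given dextran sulfate sodium (DSS), which injures the lining of the colon and serves to induce colitis in rodents, were pooled and compared with 8 control libraries. These 14 libraries were chosen by their labels alone and are 14 of the 22 of the study. Wild type BALB/c mice drank one of 3 waters, freely with their diet, for 3 weeks from 5 weeks of age. The controls (CON, n = 8) were kept on distilled water. The DSS group (n = 5) drank distilled water, the HMLS group (n = 4) the deep sea water named HMLS and the TM group (n = 5) the deep sea water named TM, and in each of these 3 groups the water held 5% DSS in the last week. No group here drank deep sea water without DSS, so in HMLS and TM the water and DSS cannot be told apart against CON. The labels do not say that each library is a separate mouse, so p-values measure the spread between these libraries. The question was what colitis changed in all 3 waters, with the water group as a check.

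DSS thins the barrier between gut bacteria and the wall of the colon. As background, epithelial cells facing bacteria secrete antimicrobial lectins and siderophore-binding proteins, signalling through NF-kappaB (a transcription factor of inflammation) switches on cytokines and its own inhibitors, and neutrophils enter the tissue. Stem cells at the crypt base, kept by Wnt signals, replace the lost epithelium.

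Values are FPKM, fragments per kilobase of transcript, scaled to the number of mapped fragments. Differences are colitis minus CON on the log2(FPKM + 1) scale, given with their standard error (SE), a scale that understates the changes of low genes, and a gene was called at a Benjamini-Hochberg adjusted p under 0.05 in limma over all genes tested. The libraries held 48089882 to 68733410 reads. The share of mapped reads was 89.28% ± 2.82 in colitis (SD, n = 14) against 91.02% ± 0.709 in CON (SD, n = 8), and was not called (p = 0.102 by a two-sided exact permutation test, and 0.102 after adjustment over 2 library measures). It was lowest in DSS, at 86.57% ± 2.81, and 91.53% ± 1.27 in TM, and without the TM group it passed (difference -2.98, exact p = 0.00128). Fewer genes reached 1 FPKM in colitis, 12773 ± 201 against 13072 ± 129 (exact p = 0.00109, adjusted p = 0.00218). Markers of the labelled tissue were abundant in every library, with the colonocyte carbonic anhydrase Car1 at 1948 to 7531 FPKM and the goblet cell mucin Muc2 at 1140.2 to 6659 FPKM over the 22 libraries. Some libraries stood apart in single genes, CON 8 in 16 of the genes named, HMLS 7 and DSS 1 in 6 each and CON 1 in 4, among them the mucosal pentraxins. Where a call ended without 1 library, that library is named with the alternatives at the end.

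Of 13788 genes tested, 5560 were called, 40.3% of all tested. Of these 2871 were higher in colitis (20.8%) and 2689 lower (19.5%). Most changes were small, with a median size of 0.45 on the log2 scale, and the median difference over all genes tested was 0.0006. A change of at least 2-fold was seen in 147 genes that rose (1.07%) and 196 that fell (1.42%). In 202 genes (1.47%) all 14 colitis libraries were above all 8 CON libraries, and in 123 (0.892%) all were below. These shares are the background for the counts of each gene group below. With the share of mapped reads as a covariate 4294 genes were called, 4224 of them shared with the 5560, and without CON 8 the number of genes whose groups do not overlap was 542. It was 420 without HMLS 7.

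Proteins that epithelial cells secrete against bacteria were among those that rose most. Of 22 antimicrobial and acute-phase genes tested, 12 rose and 1 fell, with a median difference of 0.97. The lectin Reg3b (chr6:78370657-78373466 on GRCm38), which binds the peptidoglycan of bacteria, lay at 422 to 1764 FPKM (median 1048) in CON and 4362 to 25761 FPKM (median 9872) in colitis. In the 5 DSS libraries it stood at 25761, 15827, 7637, 10982 and 19958 FPKM, in the 4 HMLS libraries at 4362, 5384, 5787 and 14454 and in the 5 TM libraries at 12530, 8762, 6769, 13843 and 5085. Every colitis library was above every CON library, and the difference was 3.43 ± 0.334 (adjusted p = 4.9e-07). Reg3b made up 0.914% to 5.16% of the summed FPKM of a colitis library and 0.0985% to 0.353% of a CON library.

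The related bactericidal lectin Reg3g (chr6:78466269-78468872) lay at 102 to 382 FPKM (median 288) in CON and 272 to 7054 FPKM (median 1347) in colitis, a rise of 2.59 ± 0.446 (adjusted p = 0.000161). Reg3a, the third lectin of this family that rose, lay at 0.103 to 2.07 FPKM (median 0.695) in CON and 1.75 to 31.5 FPKM (median 6.06) in colitis (difference 2.05 ± 0.362). For Reg3g 1 colitis library, at 272 FPKM, lay within the CON range, and for Reg3a 2 did. Dmbt1 (chr7:131032053-131121630), a mucosal scavenger protein that clumps bacteria, had the largest moderated test statistic of all genes that rose. It lay at 1209 to 1894 FPKM (median 1459) in CON and 2536 to 4367 FPKM (median 3346) in colitis, without overlap (difference 1.15 ± 0.102, adjusted p = 1.03e-07). The acute-phase protein Saa3 (chr7:46711998-46715700) lay at 2.24 to 9.72 FPKM (median 4.22) in CON and 13.2 to 212 FPKM (median 41) in colitis, again without overlap (difference 2.92 ± 0.432).

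Lcn2 (chr2:32384633-32388252) encodes lipocalin 2, which takes up bacterial siderophores. It lay at 0.223 to 1.14 FPKM (median 0.433) in CON and 0.18 to 127 FPKM (median 10.8) in colitis. The 5 DSS libraries held 17.9, 1.4, 15.8, 2.12 and 127 FPKM, the 4 HMLS libraries 13, 7.31, 0.18 and 5.13 and the 5 TM libraries 31.1, 48.4, 8.58, 17.9 and 8.65. One HMLS library, replicate 7, lay below every CON library at 0.18 FPKM, the other 13 above, and the difference was 2.88 ± 0.612 (adjusted p = 0.00101), or 3.14 without HMLS 7 (adjusted p = 0.000161). Nos2, the inducible nitric oxide synthase, lay at 0.263 to 1.62 FPKM (median 0.633) in CON and 0.891 to 28.2 FPKM (median 5.47) in colitis (difference 1.77 ± 0.447, adjusted p = 0.00368). Its means were 9.49 ± 7.76 FPKM in DSS, 1.22 ± 0.446 in HMLS and 10.7 ± 9.89 in TM (SD), so HMLS was close to the CON mean of 0.79 ± 0.516. The F test among the 3 waters gave Nos2 an unadjusted p of 0.0048, which did not pass over all genes.

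**Figure D1:**
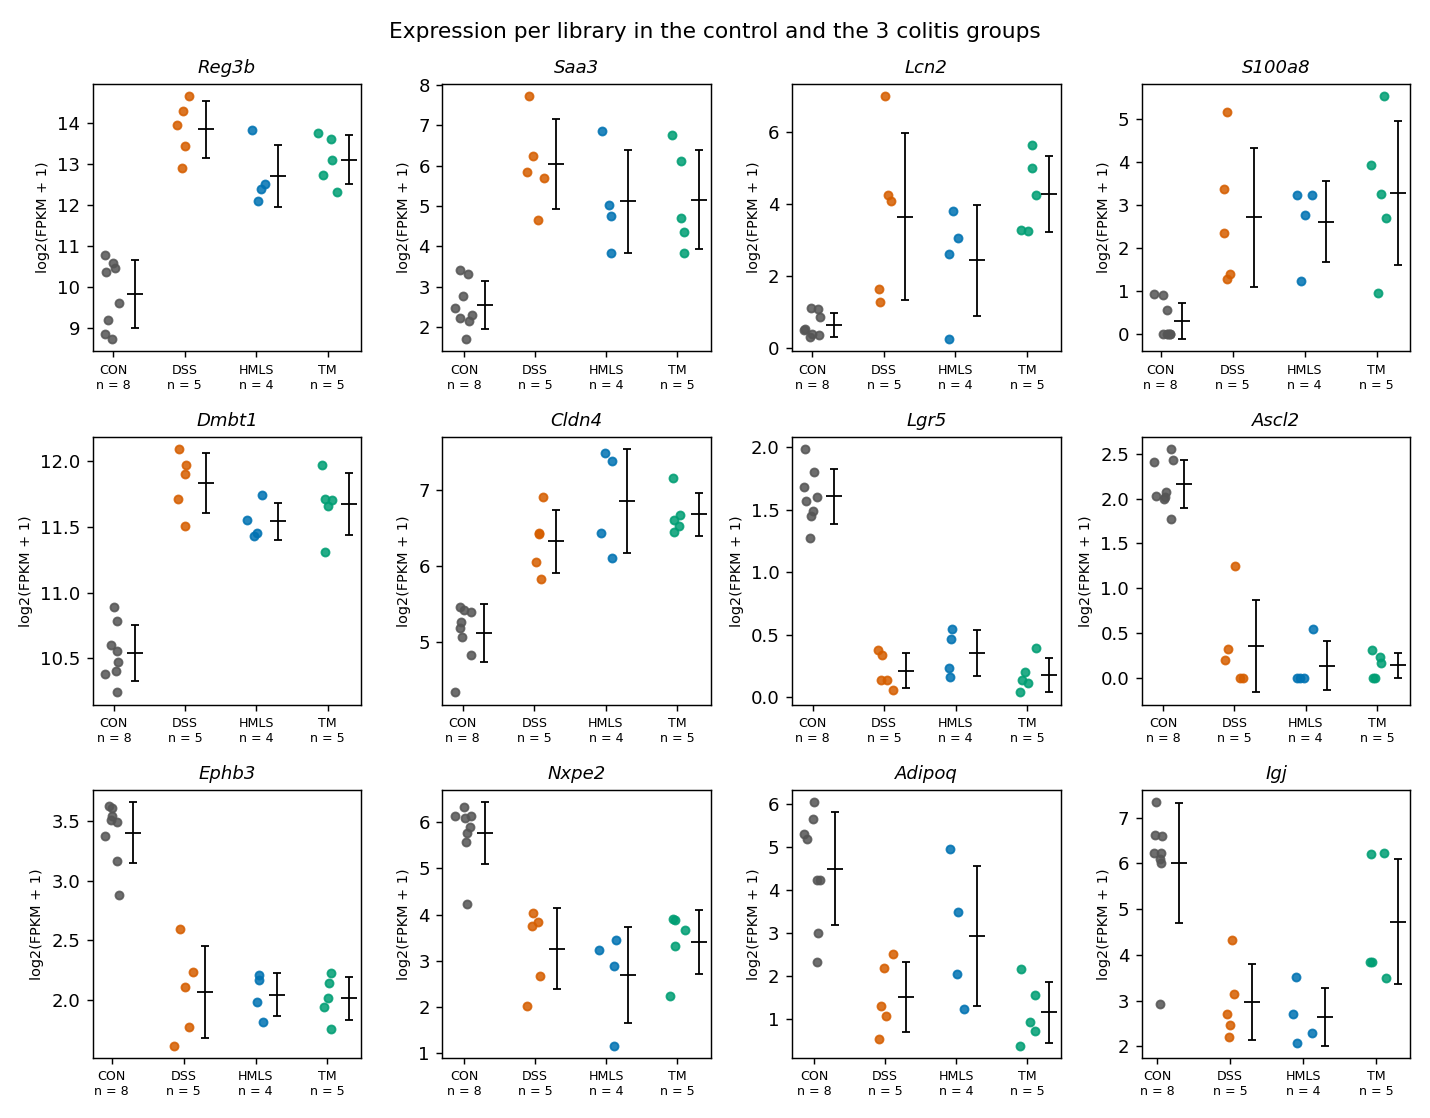
Expression of 12 genes in each of the 22 libraries as log2(FPKM + 1), by group, with the mean and SD beside the points. Reg3b, Saa3, S100a8, Dmbt1 and Cldn4 lie higher and Lgr5, Ascl2, Ephb3 and Nxpe2 lower in all 14 colitis libraries than in all 8 CON libraries, while Lcn2, Adipoq and Igj overlap.

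S100a8 and S100a9, the subunits of calprotectin, which neutrophils hold in bulk, rose together. S100a8 was at 0 to 0.896 FPKM (median 0) in CON, with 5 of 8 libraries at 0, and 0.945 to 45.6 FPKM (median 7.06) in colitis (difference 2.59 ± 0.486, adjusted p = 0.000338, or 4.76 with a pseudocount of 0.1). All 14 colitis libraries lay above the 8 CON libraries, the lowest by a small step, at 0.945 against 0.896 FPKM. S100a9 lay at 0 to 0.397 FPKM (median 0.0828) in CON and 0 to 41.3 FPKM (median 4.74) in colitis (difference 2.42 ± 0.494), and 1 colitis library, HMLS 7, was at 0. Without it the difference was 2.62. Retnlg, a resistin-like protein of neutrophils, lay at 0 to 0.211 FPKM (median 0) in CON and 0 to 11.7 FPKM (median 2.01) in colitis (difference 1.67 ± 0.33). G0s2, an inhibitor of lipolysis, fell by 0.53 ± 0.193. Of the 18 neutrophil genes in the table, 5 passed the filter on low values, and the other 13 stayed under it. That filter asks for 1 FPKM in at least 4 of 22 libraries, so a gene can pass through 1 side alone. S100a8, S100a9 and Retnlg did so, being under 1 FPKM in every CON library. The count of tested neutrophil genes that rose is therefore no support for a rise of the list. Summed over the list the level was 5.13 to 9.58 FPKM in CON and 6.41 to 117 FPKM in colitis, so in some colitis libraries the neutrophil sum lay within the CON range. In bulk tissue more cells of a type and more RNA per cell cannot be told apart, for neutrophils as for every cell type below.

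Among signalling genes Tnf, the central inflammatory cytokine, lay at 0.739 to 2.18 FPKM (median 1.21) in CON and 1.85 to 10.3 FPKM (median 4.92) in colitis, with 13 of 14 colitis libraries above CON (difference 1.26 ± 0.196, adjusted p = 4.97e-05). The cytokine Il18, made by the epithelium itself, lay at 23.3 to 48.3 FPKM (median 29.7) in CON and 39.9 to 111 FPKM (median 71.2) in colitis (difference 1.08 ± 0.175). Cxcl1 and Cxcl2, chemokines that attract neutrophils, were low. Cxcl1 lay at 0 to 0.927 FPKM (median 0.206) in CON and 0.198 to 10.8 FPKM (median 1.52) in colitis and Cxcl2 at 0 to 0.345 FPKM (median 0.0599) in CON and 0 to 10.9 FPKM (median 1.1) in colitis. Both rose (differences 1.07 ± 0.329 and 1.18 ± 0.369). Without the TM group Cxcl1 was no longer called (0.66, adjusted p = 0.0621). The cytokine Il1b (0.41 ± 0.336, adjusted p = 0.336) and the prostaglandin synthase Ptgs2 (-0.17 ± 0.244, adjusted p = 0.591) were not called, and Il6 stayed under the filter. Of 12 cytokine genes tested 4 rose and 1 fell, with a median of 0.45. Among them Cxcl1 and Cxcl2 were under 1 FPKM in every CON library and passed the filter through colitis libraries alone.

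A pair of feedback inhibitors of NF-kappaB rose in every colitis library. Nfkbia, the inhibitor that holds NF-kappaB in the cytoplasm, lay at 27.7 to 42.9 FPKM (median 30.6) in CON and 43.4 to 150.5 FPKM (median 76) in colitis (difference 1.23 ± 0.217, adjusted p = 0.000172). Zc3h12a, an RNase that cuts cytokine mRNAs, lay at 3.82 to 7.37 FPKM (median 4.47) in CON and 8.9 to 49.3 FPKM (median 18.2) in colitis (difference 1.69 ± 0.244). Both showed no overlap between the sides. Within the same list Traf1, an adaptor of TNF receptors, lay at 3.91 to 7.88 FPKM (median 5.54) in CON and 1.02 to 3.85 FPKM (median 1.46) in colitis (difference -1.28 ± 0.156), also without overlap, and Cd83, a protein of activated dendritic and B cells, fell by 1.19 ± 0.174. The list as a whole had 7 genes up and 2 down of 17. Of 13 immediate early genes 5 rose, among them Jun (0.86), Fosl2 (0.68), Klf6 (0.77) and Ier2 (0.90), transcription factors and early response genes.

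Promoters of genes that rose by at least 2-fold held the NF-kappaB letters GGGANNTTC (searched on both strands, from 250 bases before to 50 after the gene start) in 10 of 110 cases, 9.09%, against 3.54% of all 10292 tested genes with a promoter in the RefSeq table. Over all genes called higher it was 82 of 2199, 3.73%, close to that background. Among those that fell by at least 2-fold it was 3 of 112, 2.68%. The AP-1 letters TGACTCA, bound by Fos and Jun family proteins, were in 9.09% of the first set, 5.36% of the second, 4.91% of all genes called higher and 3.71% of all tested. The E-box letters CACGTG were in 11 of 110 of the first set and 9.9% of all, and the D-box letters TTATGTAA in 0 of 110 and 0.476% of all. The Wnt-related TCF/LEF letters CTTTGAT were in 6 of 112 genes that fell by at least 2-fold, 5.36%, and in 2.37% of all. Over all genes called lower the share was 2.44%, close to that background, and over all called higher 2.5%. These matches are a description, with no test, and say nothing of binding. The windows below come from the RefSeq table on GRCm38.p6, were picked after the values were seen from the 10 genes that rose and hold the NF-kappaB letters, and are shown since these genes are described here. Each runs 5′ to 3′ on the gene's strand with 10 bases on either side of the match in capitals.
Cxcl1, chr5:90891164-90891192, plus strand: cctgtactccGGGAATTTCcctggcccgg
Cxcl2, chr5:90903792-90903820, plus strand: cctgagctcaGGGAATTTCcctggtcccc
Nfkbia, chr12:55492657-55492685, minus strand: gactggcttgGAAATTCCCcgcgcctgac
Tnf, chr17:35201985-35202013, minus strand: ccagccagcaGAAGCTCCCtcagcgagga
S100a9, chr3:90695838-90695866, minus strand: gcccagggctGGGAATTTCacaaaacatc
Reg3g, chr6:78468997-78469025, minus strand: ttggcaggaaGAAACTCCCgcttttgatg
Tef, chr15:81802471-81802499, plus strand: gactgggggaGAACTTCCCtttgcaaagt
The first base of the match lay at -71, -97, -28, 5, -135, -141 and -192 from the gene start, in this order. Of 14 genes with the largest test statistics whose promoters the table holds, 1 had any of the 5 motifs searched, B3galt2.

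Few interferon-induced genes were called. Of 28 tested 1 rose and 3 fell, with a median of -0.09. Summed over the list the level was 219.9 to 357.3 FPKM (median 271.2) in CON and 122.4 to 1260.2 FPKM (median 261.6) in colitis. The highest sum was that of a TM library, while the TM median was 230.2 FPKM. Irf7, a transcription factor of the interferon response, lay at 49 to 103 FPKM (median 62.7) in CON and 20.9 to 81.2 FPKM (median 40.8) in colitis (difference -0.70 ± 0.176, adjusted p = 0.00321). The RNA-sensing enzymes Oas2 (-0.49) and Oas1a (-0.44) were lower as well. The call of Oas2 ended with quantile scaling, with the replicate block and without the HMLS group (adjusted p = 0.0736, 0.0645 and 0.0785), and that of Oas1a with the block (0.0534). Zbp1, a sensor of Z-form nucleic acid, was the member that rose (0.91 ± 0.338, adjusted p = 0.0349), and its call ended in 10 of the 36 alternative settings run for single genes.

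Most tested genes of crypt base stem cells and Wnt signalling fell, several of them in every colitis library. The receptor Lgr5 (chr10:115450311-115587780), which marks these cells and amplifies Wnt signals, had the test statistic largest in size of all genes. It stood at 2.49, 2.96, 1.73, 1.42, 2.03, 2.21, 1.96 and 1.81 FPKM in the 8 CON libraries. In DSS it was at 0.264, 0.0996, 0.103, 0.3 and 0.0409, in HMLS at 0.118, 0.179, 0.383 and 0.456 and in TM at 0.102, 0.0825, 0.317, 0.0269 and 0.148. No library overlapped, and the difference was -1.37 ± 0.0911 (adjusted p = 1.15e-09). Its size depends on the pseudocount, and was -3.03 with 0.1 in place of 1. Ascl2 (chr7:142966829-142969264), a transcription factor of the same cells, lay at 2.43 to 4.88 FPKM (median 3.15) in CON and 0 to 1.37 FPKM (median 0.059) in colitis (difference -1.95 ± 0.139, adjusted p = 2.48e-09, or -4.17 with a pseudocount of 0.1). Axin2, a feedback inhibitor switched on by Wnt, lay at 6.7 to 10.4 FPKM (median 9.21) in CON and 0.846 to 5.43 FPKM (median 1.76) in colitis (difference -1.71 ± 0.173).

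The ephrin receptor Ephb3 (chr16:21204755-21223305), which positions cells along the crypt, lay at 6.38 to 11.4 FPKM (median 10.4) in CON and 2.07 to 5.06 FPKM (median 3.19) in colitis (difference -1.36 ± 0.113), and Tnfrsf19, a TNF receptor family member and Wnt target, at 2.42 to 4.28 FPKM (median 3.4) in CON and 0.27 to 1.87 FPKM (median 0.742) in colitis (difference -1.28 ± 0.125). Neither overlapped. Of 20 stem cell and Wnt genes tested 14 fell and 1 rose, 7 of them with every colitis library below every CON library, and the median was -0.54. Summed over the 23 listed genes the level was 514.8 to 571.1 FPKM (median 538.3) in CON. In colitis it was 420.7 to 645.5 FPKM (median 532.7), so the sum, which the abundant genes set, did not show the fall. Bambi, a decoy receptor of the TGF-beta family, also fell without overlap, at 1.16 to 2.98 FPKM (median 2.29) in CON and 0.12 to 0.738 FPKM (median 0.343) in colitis (difference -1.17 ± 0.106). Lgr5 and Bambi were under 1 FPKM in every colitis library and passed the filter through CON libraries alone. The number of fragments behind such low levels is not known from the files used here.

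Many genes of DNA replication fell as well. Of 30 replication and mitosis genes 14 fell and 0 rose (median -0.55). Mcm6, a subunit of the replicative helicase, lay at 5.8 to 19.9 FPKM (median 9.87) in CON and 0.565 to 10.9 FPKM (median 2.86) in colitis (difference -1.54 ± 0.319, adjusted p = 0.000742). Its partners Mcm2 and Mcm4 fell by 0.78 ± 0.162 and 0.57 ± 0.135, and Pcna, the sliding clamp, by 0.60 ± 0.127. Mki67, a marker of cycling cells, lay at 7.84 to 28.2 FPKM (median 13.2) in CON and 3.18 to 27.1 FPKM (median 6.75) in colitis (difference -0.77 ± 0.3, adjusted p = 0.044), and its call ended in 20 of the 36 alternative settings run for it. The histone gene Hist1h2bm lay at 27.8 to 139.9 FPKM (median 46.3) in CON and 1.32 to 80.5 FPKM (median 10.2) in colitis (difference -2.18 ± 0.553).

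Of 26 junction genes 14 rose and 4 fell (median 0.39), as did 12 and 2 of 20 genes of regenerating epithelium. The claudin Cldn4, a sealing protein of tight junctions, lay at 19.3 to 43 FPKM (median 36.4) in CON and 56 to 179 FPKM (median 88.7) in colitis (difference 1.48 ± 0.187, adjusted p = 6.33e-06) with no overlap. Cgn, a cytoplasmic plaque protein of the junction, lay at 21 to 32.4 FPKM (median 25.9) in CON and 37.6 to 57.6 FPKM (median 45.6) in colitis (difference 0.78 ± 0.0943), and F11r, a junctional adhesion molecule, at 74.1 to 97.1 FPKM (median 83.5) in CON and 100.5 to 135 FPKM (median 116) in colitis (difference 0.48 ± 0.0686), both without overlap. Cldn7 rose by 0.85 ± 0.115, with 11 of 14 colitis libraries above CON. The pore-forming claudin Cldn2 went the other way, at 43.2 to 108 FPKM (median 61.1) in CON and 15.7 to 68.6 FPKM (median 41.6) in colitis (difference -0.75 ± 0.247, adjusted p = 0.0191), a call that ended in 4 settings, and Cldn8 was not called (-0.43, adjusted p = 0.11).

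Tgfa, a ligand of the EGF receptor, lay at 10.2 to 16.6 FPKM (median 12.6) in CON and 15.2 to 35.3 FPKM (median 23.2) in colitis (difference 0.79 ± 0.125), and the urokinase receptor Plaur rose by 1.13 ± 0.207. In the list of regenerating epithelium, which also holds Cldn4, 12 of 20 genes rose and 2 fell (median 0.61). Among all genes with the largest test statistics on the higher side were the actin-binding coronin Coro2a, at 44.5 to 80.6 FPKM (median 52.4) in CON and 104 to 198 FPKM (median 143) in colitis (difference 1.35 ± 0.125), the purine enzyme Gda (1.41 ± 0.137) and the galactosyltransferase B4galt1 (1.04 ± 0.106). With them stood the lipid transfer protein Pitpna (0.65 ± 0.0667), the nuclear poly(A)-binding protein Pabpn1 (0.94 ± 0.0965), the proton pump subunit Atp6v0a1 (0.74 ± 0.0768), the phosphatase subunit Ppp4r1 (0.60 ± 0.0674) and Ttc22 (1.14 ± 0.129). For all 8 of these genes no colitis library was as low as any CON library. On the lower side the galactosyltransferase B3galt2 fell by 1.63 ± 0.163, Samd5 by 1.81 ± 0.159 and the mitochondrial protein Armcx3 by 0.71 ± 0.072, with no overlap.

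Goblet cell genes fell in part. Of 19 tested 6 fell and 1 rose, with a median of -0.25. The secreted mucin Muc2, which forms the mucus layer, lay at 4539.6 to 6659 FPKM (median 5854) in CON and 1140.2 to 6368 FPKM (median 3561) in colitis (difference -0.70 ± 0.242, adjusted p = 0.0253). Its means were 4665 ± 1894 FPKM in DSS, 2655 ± 1149.9 in HMLS and 4166 ± 1419 in TM (SD), and without the HMLS group it was not called (-0.48, adjusted p = 0.0738). Agr2, a disulfide isomerase needed to make Muc2, fell by 1.11 ± 0.3, the kallikrein Klk1 by 0.88 ± 0.275 and the sialyltransferase St3gal4 by 0.86 ± 0.173. The trefoil peptide Tff3, which restores the surface, was not called (0.41 ± 0.178, adjusted p = 0.0665), and the membrane mucin Muc13 rose without overlap at 472 to 709.7 FPKM (median 624) in CON and 787 to 1680.4 FPKM (median 992) in colitis (difference 0.83 ± 0.125).

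Ang4, an antimicrobial ribonuclease of gut epithelium, lay at 1.92 to 165 FPKM (median 6.48) in CON and 0.196 to 3.24 FPKM (median 0.776) in colitis, and fell by 2.45 ± 0.491. CON 1 held 165 FPKM, and without it the difference was -1.87 (adjusted p = 0.000103). The mucosal pentraxins Mptx1 and Mptx2 followed the same course, with 928 and 472 FPKM in CON 1. Over the libraries Mptx1 lay at 21.7 to 928 FPKM (median 27.8) in CON and 1.73 to 25.4 FPKM (median 8.7) in colitis, and Mptx2 at 6.96 to 472 FPKM (median 14.8) in CON and 0.877 to 13.6 FPKM (median 2.93) in colitis. Their differences were -2.15 ± 0.561 and -2.32 ± 0.563, and -1.51 and -1.68 without CON 1. Mptx1, Mptx2, Ang4 and the histone genes have close copies in the genome among which reads can be split, so their values are less certain. Nxpe2 (chr9:48318006-48353454) lay at 17.6 to 78.9 FPKM (median 62.5) in CON and 1.25 to 15.4 FPKM (median 9.48) in colitis without overlap (difference -2.62 ± 0.331).

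Absorptive genes of colonocytes were called no more often than all genes tested. Of 33 tested 6 rose, 18.2% against 20.8% of all genes, and 3 fell, 9.09% against 19.5%, and the median was 0.02. The kinase Sgk1, which raises sodium uptake, lay at 67.5 to 216 FPKM (median 149) in CON and 96.2 to 1065 FPKM (median 412) in colitis (difference 1.38 ± 0.372), and Atp1b1, a subunit of the sodium pump, rose by 1.003 ± 0.15. The sulfate transporter Slc26a2 rose by 0.50 ± 0.142. Car2, a carbonic anhydrase, lay at 361 to 491 FPKM (median 434) in CON and 103 to 375 FPKM (median 217) in colitis (difference -1.11 ± 0.222). Not called were Car1 (-0.45, adjusted p = 0.114), Car4 (0.79, adjusted p = 0.081), the chloride exchanger Slc26a3 (-0.45, adjusted p = 0.279), the magnesium channel Trpm6 (0.25, adjusted p = 0.316) and the water channel Aqp8 (-0.06, adjusted p = 0.952). Aqp8 lay at 19.3 to 262 FPKM (median 37.9) in CON and 10.4 to 469 FPKM (median 62.9) in colitis, a spread wider than any difference between the sides.

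Of 16 enteroendocrine genes 1 rose and 2 fell. Pcsk1n, an inhibitor of the prohormone convertase, rose by 0.59 ± 0.211, while the convertase Pcsk1 fell by 0.59 ± 0.212 and Tph1, which makes serotonin, by 0.69 ± 0.247. These 3 calls ended in 6, 7 and 8 of the 36 alternative settings.

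**Figure D2:**
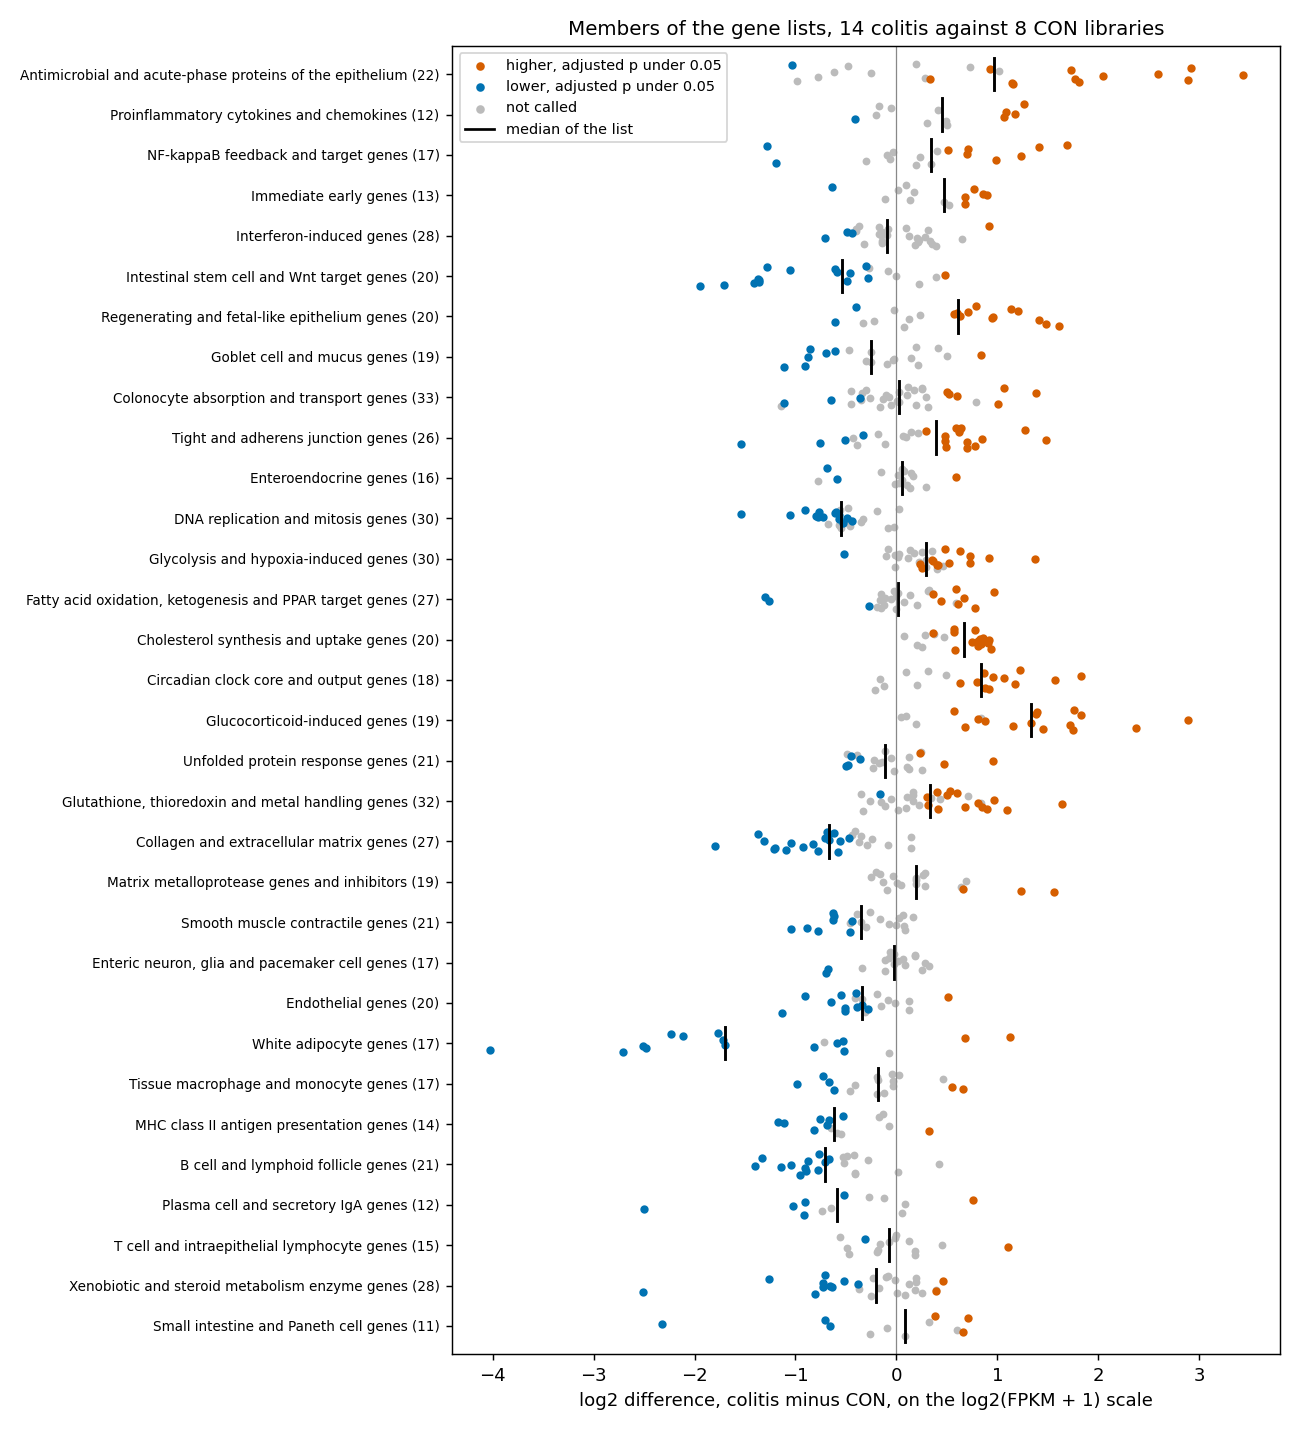
Differences of the members of each gene list with at least 10 genes tested (number in brackets), with the list's median as a bar. The glucocorticoid-induced, antimicrobial and clock lists have their medians farthest to the right, at 1.33, 0.97 and 0.84, and the white adipocyte list the lowest, at -1.70.

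Of 20 cholesterol synthesis and uptake genes 14 rose and none fell (median 0.67). Fdft1, which makes squalene, lay at 12.7 to 20.4 FPKM (median 16.7) in CON and 20.5 to 47.7 FPKM (median 27.2) in colitis (difference 0.80 ± 0.147, adjusted p = 0.000222) without overlap. Srebf2, the transcription factor of this pathway, rose by 0.78 ± 0.13. Of 18 clock genes 11 rose and none fell (median 0.84). Per1, a repressor of the clock, lay at 2.27 to 6.52 FPKM (median 4.59) in CON and 4.1 to 57.8 FPKM (median 19.9) in colitis (difference 1.83 ± 0.316), Nfil3 rose by 1.57 ± 0.252, Bhlhe40 by 0.92 ± 0.164 and Tef by 1.23 ± 0.235. The labels give no time of day of collection.

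Of 19 genes tested in the glucocorticoid-induced list 15 rose and none fell, with a median of 1.33. The list also holds genes that handle the hormone, such as Hsd11b2, so the count is not one of hormone targets alone. Whether the hormone had a part was not tested. The list shares Per1 with the clock list, Lcn2 with the antimicrobial list and Sgk1 with the absorptive list. It also shares Dusp1 with the immediate early list and Mt1 and Mt2 with the redox and metal handling list. Ddit4, an inhibitor of mTORC1 that stress switches on, lay at 7.98 to 15.9 FPKM (median 13.6) in CON and 17.6 to 188 FPKM (median 73) in colitis (difference 2.37 ± 0.368), with no overlap. Hsd11b2, which inactivates glucocorticoids, lay at 31.3 to 86.1 FPKM (median 54.8) in CON and 79.4 to 215 FPKM (median 139.7) in colitis (difference 1.33 ± 0.201), the transcription factor Cebpd rose by 1.45 ± 0.251 and Errfi1, a feedback inhibitor of the EGF receptor, by 1.16 ± 0.196. Ctla2a, a cysteine protease inhibitor, lay at 7.54 to 29.2 FPKM (median 12.1) in CON and 26.2 to 198 FPKM (median 105) in colitis, and rose by 2.64 ± 0.356 (adjusted p = 1.58e-05). Also among the largest increases were AI747448, at 0.591 to 7.97 FPKM (median 1.53) in CON and 7.48 to 429 FPKM (median 20.8) in colitis (difference 3.55 ± 0.558), the lipocalin Apod (2.44 ± 0.35) and the protease inhibitor Serpina3n (2.12 ± 0.461).

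In energy metabolism 13 of 30 glycolysis and hypoxia genes rose and 1 fell (median 0.29). Hexokinase 2 (Hk2) lay at 14.2 to 25.2 FPKM (median 19.3) in CON and 25.1 to 101 FPKM (median 46) in colitis (difference 1.37 ± 0.191), the stress-induced gene Ndrg1 rose by 0.92 ± 0.139, the glucose transporter Slc2a1 by 0.63 ± 0.12 and Gpi1 by 0.36 ± 0.0812. Of 27 fatty acid oxidation genes 7 rose and 3 fell. The oxidation enzyme Acadl (0.77 ± 0.123) was higher, and the fatty acid handling proteins Cd36 (-1.26 ± 0.244) and Fabp2 (-1.31 ± 0.296) lower. Of 32 redox and metal handling genes 14 rose and 1 fell, with Gclc, the rate-limiting enzyme of glutathione synthesis, at 0.89 ± 0.183, Txnrd1 at 0.53 ± 0.0912, Srxn1 at 0.60 ± 0.118 and the iron store Fth1 at 1.09 ± 0.253. The unfolded protein response list had 3 higher and 4 lower of 21. Sel1l, which takes misfolded proteins out of the endoplasmic reticulum, rose by 0.23 ± 0.0549, and Ddit3 fell by 0.48 ± 0.137, Pdia4 by 0.45 ± 0.148 and Creld2 by 0.50 ± 0.178.

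Enzymes that handle foreign compounds and steroids fell more often than they rose, 10 against 2 of 28. Cyp2c55 lay at 1515 to 2213 FPKM (median 1872) in CON and 505 to 2519 FPKM (median 1166) in colitis (difference -0.80 ± 0.233, adjusted p = 0.00902), and the sulfotransferase Sult1c2 fell by 1.26 ± 0.209, the epoxide hydrolase Ephx1 by 0.73 ± 0.117 and the flavin monooxygenase Fmo1 by 0.66 ± 0.153. The xenobiotic receptor Nr1i2 rose by 0.46 ± 0.101.

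Of 27 collagen and matrix genes 18 fell and 0 rose (median -0.66). Col14a1 lay at 2.27 to 4.13 FPKM (median 3.4) in CON and 0.489 to 1.79 FPKM (median 1.07) in colitis (difference -1.09 ± 0.1, adjusted p = 1.51e-07) without overlap. The fibrillar collagen Col1a1 lay at 22.9 to 37.5 FPKM (median 26.4) in CON and 5.3 to 63.9 FPKM (median 9.44) in colitis (difference -1.20 ± 0.297), with 13 of 14 colitis libraries below CON and 1 above, TM 3 at 63.9 FPKM, and the difference was -1.38 without it. Col6a3 fell by 1.31 ± 0.187, Col15a1 by 1.22 ± 0.189 and the proteoglycan Lum by 1.37 ± 0.245. Of 19 genes of matrix-cutting proteases and their inhibitors 3 rose and 0 fell (median 0.19), a share of 15.8% against 20.8% of all genes. These were Adamts proteases, Adamts1 lying at 1.56 to 2.78 FPKM (median 1.9) in CON and 1.15 to 24.6 FPKM (median 7.23) in colitis (difference 1.57 ± 0.327), Adamts4 rising by 1.23 ± 0.344 and Adamts9 by 0.66 ± 0.201, while Mmp3 (0.69, adjusted p = 0.104) and Mmp10 (0.64, adjusted p = 0.142) were not called. The call of Adamts4 ended without the TM group (0.80, adjusted p = 0.0556) and that of Adamts9 with the mapped share as a covariate (0.55, adjusted p = 0.0503).

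Smooth muscle genes fell in 8 of 21 cases and rose in none. Calponin (Cnn1) lay at 132 to 293 FPKM (median 199) in CON and 36.3 to 216 FPKM (median 104) in colitis (difference -1.05 ± 0.24), Tpm1 fell by 0.63 ± 0.107, Des by 0.89 ± 0.235 and Synm by 0.62 ± 0.189. Summed over the list muscle genes were at 2385 to 4397 FPKM in CON and 1233 to 4280.1 FPKM in colitis. Of 17 neuron, glia and pacemaker genes 2 fell, the pacemaker cell genes Ano1 (-0.70 ± 0.129) and Kit (-0.67 ± 0.177). Of 20 endothelial genes 10 fell and 1 rose. The apelin receptor Aplnr lay at 1.47 to 3.71 FPKM (median 2.37) in CON and 0.125 to 1.74 FPKM (median 0.449) in colitis (difference -1.14 ± 0.151), and Sox18, Tek and Kdr fell by 0.91 ± 0.159, 0.55 ± 0.106 and 0.65 ± 0.157.

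White fat genes had the lowest median of the lists with at least 10 genes tested. Of 17 tested 13 fell and 2 rose, with a median of -1.70. Car3 (chr3:14863512-14872523), a carbonic anhydrase of fat and muscle, lay at 23.6 to 442 FPKM (median 148) in CON and 1.01 to 66.3 FPKM (median 4.85) in colitis (difference -4.03 ± 0.624, adjusted p = 7.43e-05). The adipokine Adipoq (chr16:23146536-23158028) lay at 3.96 to 64.9 FPKM (median 26.7) in CON and 0.295 to 29.8 FPKM (median 1.68) in colitis (difference -2.71 ± 0.54). Scd1, a fatty acid desaturase, fell by 2.23 ± 0.389, the cytochrome P450 Cyp2e1 by 2.51 ± 0.611 and the complement protease Cfd by 2.48 ± 0.632. Adipoq was at 3.14, 29.8, 10.2 and 1.35 FPKM in the 4 HMLS libraries, of which 2 lay within the CON range. DSS 6, at 4.69 FPKM, lay within it too, and every TM library lay below it. The summed list was at 269 to 1970.5 FPKM in CON, 252 to 923 FPKM in HMLS, 257 to 333 FPKM in DSS and 213 to 418 FPKM in TM. Pnpla2, a lipase that is also made outside fat, rose by 1.12 ± 0.222. How much fat adhered to each piece of colon was not measured, and its part in these results was not tested.

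Pancreatic acinar genes were also detected. Of 14 listed in the table, 3 were tested and all fell. Clps, the colipase, was at 10.4 to 39.9 FPKM (median 20.2) in CON and 0.426 to 9.33 FPKM (median 4.3) in colitis (difference -2.24 ± 0.313), and the elastase Cela1 fell by 1.01 ± 0.216. The summed list was at 21.1 to 69.5 FPKM in CON and 5.7 to 18 FPKM in colitis, and 2 of its genes were at 0 in all 22 libraries. Among markers of other tissues, the skeletal muscle kinase Ckm fell by 0.68 ± 0.199 and the skin gene Sbsn rose by 0.48 ± 0.181, a call that ended in 15 settings, and no red blood cell gene of 6 was called. Of 11 small intestinal genes 3 rose and 3 fell, 27.3% each, against 20.8% and 19.5% of all genes tested. The bile acid transporter Slc10a2 rose by 0.71 ± 0.248 and the glucose transporter Slc5a1 by 0.38 ± 0.132, and the sucrase Sis fell by 0.71 ± 0.242. The part of these tissues in the results was not tested.

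Genes of B cells, plasma cells and antigen presentation fell in part. Of 21 B cell and follicle genes 12 fell and 0 rose (median -0.71). The complement receptor Cr2 lay at 0.285 to 5.11 FPKM (median 2.48) in CON and 0.0839 to 1.24 FPKM (median 0.383) in colitis (difference -1.05 ± 0.228), and Fcrla fell by 0.87 ± 0.193, Bank1 by 0.96 ± 0.223 and Fcer2a by 0.71 ± 0.177. The summed B cell list was at 25.3 to 172 FPKM in CON and 11.7 to 112 FPKM in colitis. Of 12 plasma cell genes 5 fell and 1 rose. Igj, the chain that joins IgA and IgM, lay at 6.56 to 161 FPKM (median 74) in CON and 3.22 to 73.7 FPKM (median 9.07) in colitis and fell by 2.50 ± 0.571 (adjusted p = 0.00185). CON 8 held 6.56 FPKM, and without it the difference was -2.94 (adjusted p = 0.000165). Derl3 fell by 0.91 ± 0.19, Txndc5 by 0.52 ± 0.164, and Prdm1, a transcription factor of plasma cells, rose by 0.76 ± 0.171.

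Of 14 MHC class II genes, which present antigen, 7 fell and 1 rose (median -0.62). H2-Eb1 lay at 10.5 to 41.9 FPKM (median 34) in CON and 4.06 to 35.4 FPKM (median 11.6) in colitis (difference -1.18 ± 0.291), H2-DMb2 fell by 1.12 ± 0.316, H2-Oa by 0.67 ± 0.163 and the dendritic cell integrin Itgax by 0.53 ± 0.171, a call that ended in 5 settings (adjusted p from 0.0552 to 0.0988). H2-Oa was under 1 FPKM in every colitis library and passed the filter through CON libraries alone. Without CON 8 the difference of H2-Eb1 was -1.37. Of 17 macrophage genes 4 fell and 2 rose. The chemokine receptors Cx3cr1 (-0.99 ± 0.182) and Ccr2 (-0.62 ± 0.15) and Emr1, which encodes F4/80 (-0.67 ± 0.166), were lower, and the lipopolysaccharide co-receptor Cd14 was higher (0.66 ± 0.185). Cd14 stood 0.72 in DSS, 0.19 in HMLS and 0.99 in TM above CON on the log2 scale, and its call ended without the TM group (0.48, adjusted p = 0.0526). Of 15 T cell genes 1 rose, the granzyme Gzma at 0.32 to 2.5 FPKM (median 0.618) in CON and 0.649 to 11.6 FPKM (median 2.53) in colitis (difference 1.11 ± 0.285), and 1 fell, the kinase Lck (-0.31 ± 0.126, adjusted p = 0.0488), a call that ended in 21 of 36 settings. Of 2 mast cell genes tested, Hdc, which makes histamine, rose by 0.47 ± 0.166 and the other, Kit, is named above. Hdc was under 1 FPKM in every CON library and passed the filter through colitis libraries alone.

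As a check of the waters, an F test among DSS, HMLS and TM over the 14 colitis libraries called 0 genes (0% of 13788), with 832 genes (6.03%) at an unadjusted p under 0.05 and a smallest adjusted p of 0.568. Without HMLS 3 it called 1 gene, the desaturase Scd1 (adjusted p = 0.0402), named since it was the gene called. A p that misses the threshold does not show that the waters act alike. Among the 343 genes called at 2-fold or more the median difference was 1.26 in size, the median range of the 3 water means 0.505, and in 327 that range was smaller than the difference. These genes were selected for a large difference, which favours a smaller water range, so this count does not show that the waters agree. The 3 comparisons with CON share the same 8 CON libraries, so their values are set side by side only. Reg3b stood 4.02 in DSS, 2.88 in HMLS and 3.28 in TM above CON on the log2 scale, and Lgr5 differed by -1.40 in DSS, -1.25 in HMLS and -1.43 in TM. Adipoq differed by -2.98 in DSS, -1.57 in HMLS and -3.35 in TM and Cldn4 by 1.21 in DSS, 1.73 in HMLS and 1.56 in TM.

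**Figure D3:**
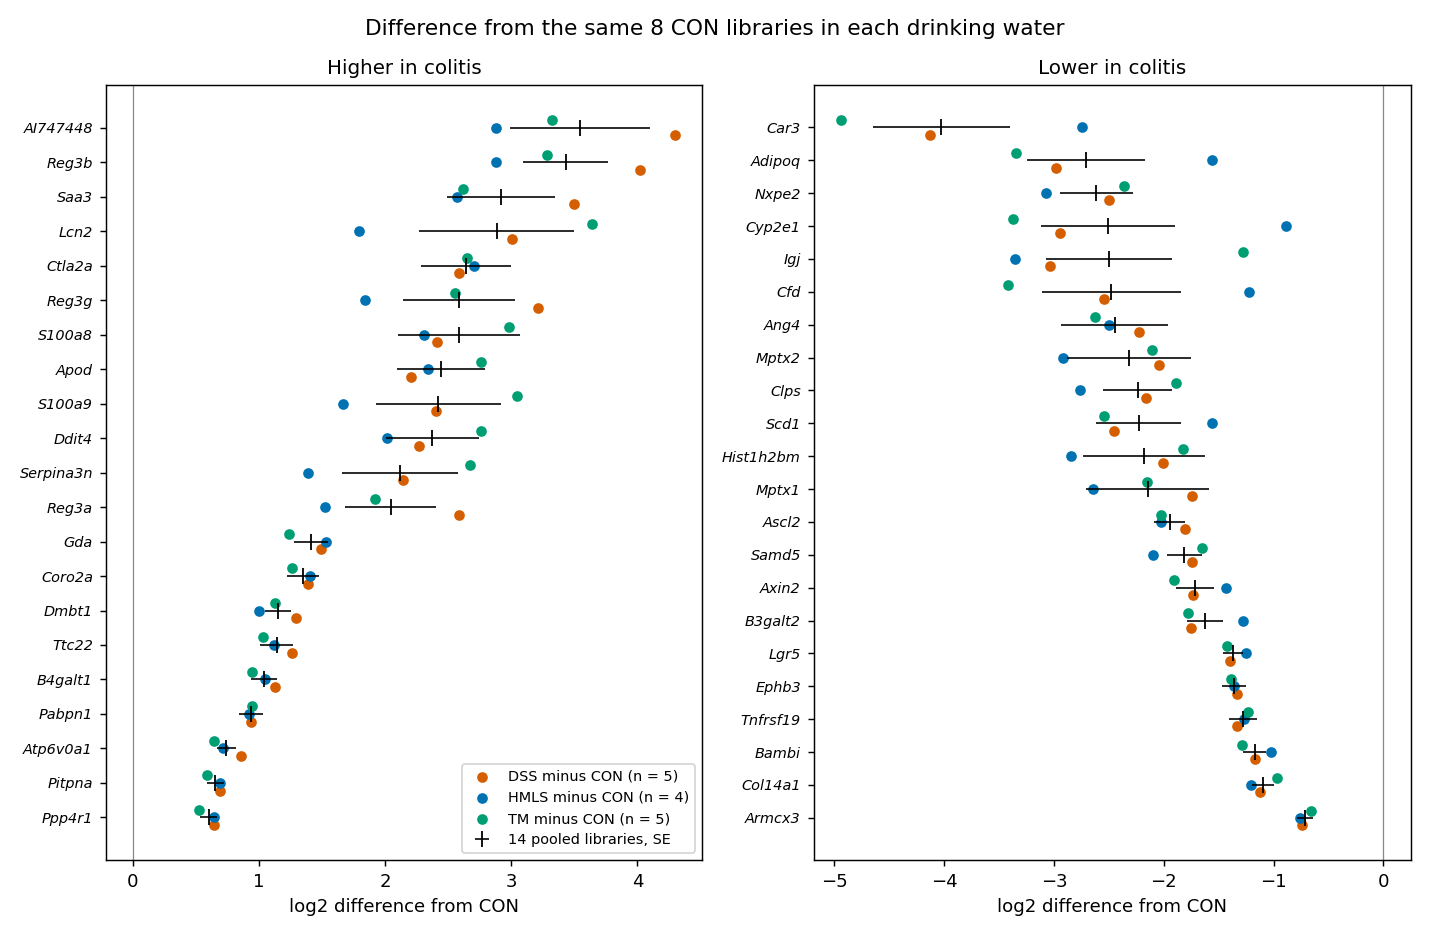
Log2 difference from CON of the genes with the largest changes or test statistics, for each water (coloured points) and for the 14 pooled libraries (tick with SE); the 3 waters share the 8 CON libraries. Ephb3 and Pabpn1 show nearly the same value in each water, as does Lgr5, whose low colitis values this scale draws together. The points of Lcn2, Igj, Cyp2e1 and Cfd lie far apart.

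The genes with the smallest p among the waters were Mzb1, Lyz2, Ets1, Pou2af1, Scd1 and H2-Oa, mostly genes of immune cells, none of them called. Mzb1, which helps fold antibodies, was at 0.499, 0, 0.171, 0.296 and 0.241 FPKM in DSS, 0.163, 0.388, 0 and 0 in HMLS and 2.58, 2.53, 4.83, 1.44 and 0.581 in TM, against 0.151 to 4 FPKM (median 2.73) in CON (limma's F test, adjusted p = 0.568, 0.000122 unadjusted). Lyz2, the lysozyme of macrophages, had means of 39.5 ± 8.26 FPKM in DSS, 33.9 ± 14.4 in HMLS and 81.6 ± 22.5 in TM (SD) against 82.2 ± 22.9 FPKM in CON. Ets1, a lymphocyte transcription factor, had means of 5.62 ± 1.18 FPKM in DSS, 4.17 ± 0.367 in HMLS and 8.4 ± 1.53 in TM and Pou2af1, a B cell coactivator, of 1.45 ± 0.861 FPKM in DSS, 1.07 ± 0.475 in HMLS and 5.3 ± 2.85 in TM. Pooled against CON these 4 fell by 1.02 ± 0.319, 0.72 ± 0.253, 0.54 ± 0.18 and 0.90 ± 0.338, and their calls ended in 3, 7, 4 and 18 of the 36 settings. The pooled value of such a gene averages waters whose means lie far apart.

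The spread between libraries differed from gene to gene. The SD of log2(FPKM + 1) within the waters was larger than that in CON for 76.2% of all tested genes, with medians of 0.273 and 0.200. Among genes called and named here the widest spread within the waters was that of Lcn2 (1.73), Hist1h2bm (1.51), AI747448 (1.5), S100a8 (1.49), S100a9 (1.46), Serpina3n (1.33), Cfd (1.3) and Car3 (1.26). The narrowest was that of Sel1l (0.0851), Armcx3 (0.107), F11r (0.114), Bambi (0.14), Pitpna (0.142), H2-Oa (0.145), Ppp4r1 (0.151) and Lgr5 (0.151). Not every large change had so wide a spread: the SD was 0.684 for Reg3b and 0.31 for the fat gene Scd1. On this scale values near 0 lie close together: Lgr5, for one, ran from 0.0269 to 0.456 FPKM over the colitis libraries, so the narrow SD of a low gene does not show uniform expression. Of the 343 genes called at 2-fold or more, 66 had no overlap between the sides.

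**Figure D4:**
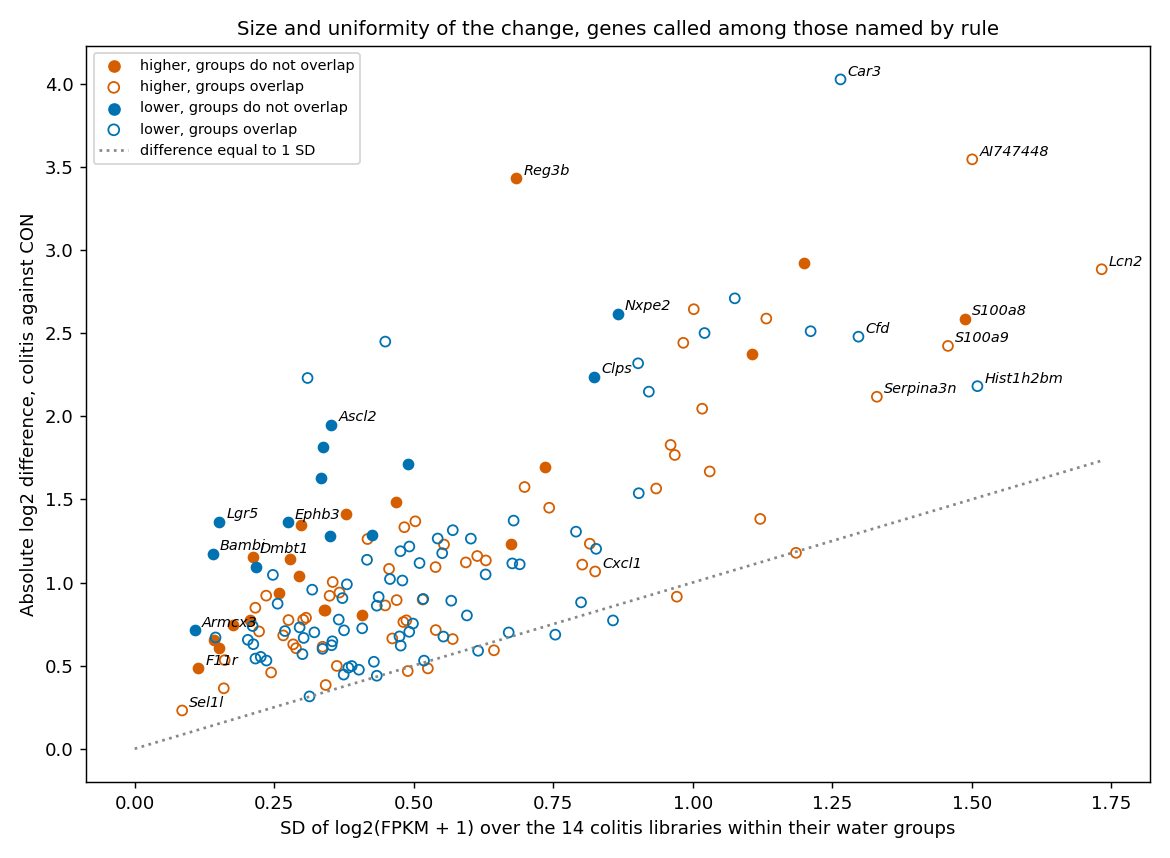
Size of the difference between colitis and CON against the spread of the 14 colitis libraries within their water groups, for the genes named by rule and called. Filled points, such as Lgr5 and Reg3b, are genes whose groups do not overlap, and the dotted line marks a difference equal to 1 SD.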

How the data were processed

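Colon RNA of 22 libraries was measured. The authors deposited 1 table of FPKM values for 23997 genes, and, per the labels, a count of reads and of mapped reads and the percent mapped for each library. The table names no unit: FPKM was read from the submitters' processing notes, which name Cufflinks 2.2.0 with TopHat2 2.0.13, Bowtie, bcl2fastq 2.20 and the build mm10, without settings. Per the labels' protocols, Trizol served for extraction and a stranded total RNA kit for the libraries. Counts per gene were not used here, so precision rests on the spread between libraries, and a count test was not run. Of the rows 2338 were at 0 in every library, 27 had date-like names and 2 names were duplicated.

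Genes with at least 1 FPKM in at least 4 of 22 libraries were converted to log2(FPKM + 1) and tested in limma 3.58.1 (trend and robust variance) in R 4.3.3, as 14 colitis against 8 CON libraries with equal weight. An F test compared DSS, HMLS and TM. The scripts were tested on simulated data. Library measures were compared by exact enumeration of 319770 groupings, where a test with 100000 resamples had been planned. The members, the 38 gene lists and the rules were chosen with earlier results of these data known.

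Genes were named by rule: the 12 largest increases and 12 largest decreases among called genes with a mean of at least 1 FPKM on the higher side, the 10 largest and 10 lowest test statistics, in each list up to 4 called genes of smallest p, a panel of 30 colitis genes, the 6 smallest p among the waters, and the 8 widest and 8 narrowest spreads. Antigen receptor segments, pseudogenes, small RNAs and predicted genes were not named. Gene positions came from GENCODE M21 (GRCm38), where 169 of the 172 symbols were found. Promoters came from the RefSeq table. Alternatives covered the pseudocount, filter, scaling, variance model, replicate number, mapped share, each water and each library. The values of some genes that the rule picked are not reported here.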

Additional observations from a re-analysis of the deposited data

Results flagged for a closer look

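In each group of 4 to 8 libraries the highest or lowest library was compared with its nearest neighbour as a share of the group's range, on log2(FPKM + 1). Of 696 groups of named genes and library measures examined, 55 had an outlying library by Dixon's 95% critical value, where chance alone gives about 1 in 20. The gap as a share of the range is given for each, and no explanation was tested.

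CON 8 accounted for 16. It was the lowest CON library for Igj (0.697), Nxpe2 (0.64), Mzb1 (0.633), Kdr (0.608), Cldn8 (0.584), H2-Eb1 (0.54), Tnfrsf19 (0.54), Cx3cr1 (0.534) and Itgax (0.528). It was the highest for Gclc (0.59), Tef (0.571), Ddit3 (0.566), Ier2 (0.552), Slc5a1 (0.545), Nr1i2 (0.54) and Fth1 (0.538). CON 1 was highest for Mptx1 (0.903), Mptx2 (0.777) and Ang4 (0.534), at 928, 472 and 165 FPKM, and lowest for Col14a1 (0.59). Other CON libraries stood apart for Mmp10 (CON 4 highest, 0.683), Armcx3 (CON 6 highest, 0.632) and Ddit4 (CON 3 lowest, 0.58).

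HMLS 7 was highest of HMLS for Ascl2 (1, with the other 3 libraries at 0) and Traf1 (0.84), and lowest for Ttc22 (0.939), B4galt1 (0.873), Cebpd (0.864) and Bank1 (0.861). Its Ascl2 value was 0.455 FPKM, below every CON library. In the same group HMLS 3 was lowest for F11r (0.904), HMLS 6 for Kit (0.894) and Txndc5 (0.835), and HMLS 8 for Tff3 (0.852).

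DSS 1 was highest of DSS for Cx3cr1 (0.785), Pcna (0.748), Aplnr (0.72) and Itgax (0.712), and lowest for Fth1 (0.837) and Slc2a1 (0.76). DSS 6 was highest for Axin2 (0.822) and Ascl2 (0.738) and lowest for Slc5a1 (0.934). DSS 7 was highest for Hdc (0.785), Il1b (0.765) and Gda (0.758), and DSS 5 for Ephx1 (0.729). TM 3 was highest of TM for Cxcl1 (0.794), Adamts4 (0.737) and Mki67 (0.718) and lowest for Car4 (0.791). TM 8 was highest for Zbp1 (0.789) and Oas2 (0.762), and TM 7 and TM 5 were lowest for Cnn1 (0.818) and Ddit3 (0.74), and for Armcx3 (0.814).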

How the results depend on the processing

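Counts of called genes kept within 1.5 times of 5560 in every setting but the test that required a fold above 1.2 (1020 genes, 538 higher and 482 lower). Leaving out single libraries gave 4750 to 5909 called genes, 307 to 391 at 2-fold or more, 330 to 542 without overlap (542 without CON 8), and 0 to 1 among the waters (1 without HMLS 3). With a pseudocount of 0.1 the 2-fold count was 725. Genes without overlap were 542 without the DSS group, 497 without HMLS and 596 without TM, where fewer libraries must be separated. The difference in mapped share ran from -1.995 to -1.19 percentage points without single libraries and was -2.98 without TM, and that in genes at 1 FPKM from -338.1 to -264.0. Same-numbered libraries of different groups had correlations of -0.326 to 0.432 (9 of 23 over 0.1, median 0.048), against a median of -0.0081 for 154 other pairs. Whether they pair was not tested. With the replicate number as a block 4698 genes were called, 2411 higher and 2287 lower.

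Single genes were followed in 36 settings (35 for 18 low genes, which the stricter filter removes). Of 161 called genes named, 133 kept call and direction in each, 28 lost the call in at least 1 and none reversed. With a fold above 1.2 required, 107 of the 161 were called. With a pseudocount of 0.1 the difference was over 1.5 times as large for 29 of them. The call ended with 1 library left out for Cldn2, Ets1 and Hdc (CON 3), Pdia4 (CON 1), Creld2 and Pcsk1n (CON 1 or 3), Lyz2 (CON 1 or 6), Sis (CON 3 or 8), Slc10a2 and Slc5a1 (CON 4 or 7), G0s2 (CON 3, 5 or 8), Pcsk1 and Tph1 (CON 1, 2, 3 or 5) and Zbp1 (CON 1, 2, 3, 6 or 8, or DSS 7). It also ended for Sbsn (CON 1, 2, 4, 5 or 8, DSS 5 or 7, HMLS 8, TM 5 or 7), Pou2af1 (CON 1, 2, 3, 4 or 6, DSS 6 or 7, any HMLS library), Lck (CON other than 4 and 7, DSS 5 or 7, HMLS other than 7, TM other than 6) and Mki67 (CON other than 2 and 8, DSS 2, 5 or 7, HMLS 3 or 6, TM other than 3). The other calls that ended were those of Adamts4, Cd14 and Cxcl1 (without TM), Adamts9 (mapped share), Oas1a (replicate block), and Itgax, Muc2, Mzb1, Oas2 and Txndc5 (2 to 5 settings each, without HMLS among them). Uncalled Aqp8 reversed to 0.17 with the replicate block, 0.031 without the HMLS group and 0.0087 to 0.26 without CON 1, 4 or 7, DSS 5, HMLS 3 or 8, or TM 5 or 8 (-0.29 to 0.26 over all single libraries). Uncalled Car1, Car4, Cldn8, Mmp3 and Tff3 passed in 1 to 6 settings each. The causes were not tested.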

Other observations

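The following gene families were chosen after their values were seen, so no test of a family was made. Most replication-dependent histone genes fell. Of 56 tested with the names Hist1, Hist2 or Hist3, 45 fell and 1, Hist2h2aa2, rose (0.64), with a median difference of -1.07. Their mRNAs lack a poly(A) tail and peak in S phase. Hist1h2ag was at 6.1 to 40.0 FPKM (median 12.6) in CON and 0 to 14.8 FPKM (median 2.57) in colitis (difference -1.996 ± 0.439, adjusted p = 0.00126). The linker histones Hist1h1c (0.11, adjusted p = 0.635) and Hist1h1e (0.03, adjusted p = 0.932) were not called.

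Several inducible chaperones fell too. Hsp90aa1, the inducible form of HSP90, was at 101 to 243 FPKM (median 111) in CON and 40.4 to 68.3 FPKM (median 50.9) in colitis, without overlap (difference -1.20 ± 0.127, adjusted p = 8.61e-07). Hspa1b, an inducible HSP70, fell by 1.83 ± 0.472 and Hsph1, its exchange factor, by 1.62 ± 0.241. Over the 76 genes tested with names of heat shock proteins and co-chaperones, 28 fell and 15 rose (median -0.11). Hspa1a and Hspa1b are near-identical copies, so the split between them is uncertain. Of 30 splicing factor genes (Srsf and Hnrnp names) 15 rose and 2 fell, with a median of 0.24, and 3 (Hnrnpl at 0.79, Srsf5 at 0.94 and Hnrnpdl at 0.998) had no overlap, while Srsf7 and Srsf10 fell. Of 77 ribosomal protein genes 28 fell and 5 rose (median -0.15), and of 84 nuclear genes of the respiratory chain 28 fell and 3 rose (median -0.16).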
